A study of Mus musculus with 16 samples.

Results

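Transcripts of 9 genes used as markers of resident macrophages were followed in mammary adipose tissue of mice with and without diet-induced obesity. The genes were Csf1r, Adgre1, Cd68, Mrc1, Clec10a, Cd163, Timd4, Folr2 and Lyve1, chosen by name as 9 of the 23179 genes in the deposited table, and all 9 were found there. RNA-Seq libraries were made from the fat pad opposite the tumor in 16 female C57BL/6NCrl mice, 4 in each of 4 groups. The mice were 8 weeks old on arrival, spent 15 weeks on their first diet, received tumor cells in week 22 after they were assigned to it and were sampled 4 weeks later. CON-LFD mice received a low-fat diet throughout. DIO-HFD mice became obese on a diet with 60% of its energy from fat and stayed on it. DIO-LFD mice had the same obesity and were then moved to the low-fat diet, and DIO-VSG mice underwent vertical sleeve gastrectomy, the removal of part of the stomach, before the low-fat diet. Mice without the gastrectomy had a sham operation, and mice of every group carried an E0771 mammary carcinoma graft, so no tumor-free or unoperated mouse served as a control. Surgery was always combined with the change of diet, and its share cannot be told apart from that of the diet in the comparison with DIO-HFD.

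Macrophages of adipose tissue comprise long-lived resident cells and cells that arrive from blood monocytes. Resident cells lie along vessels and between adipocytes, where they take up dying cells, hemoglobin, hyaluronan and other debris through scavenger receptors, and in obesity macrophages loaded with lipid gather around dying adipocytes. None of the 9 genes is restricted to 1 cell. Csf1r, Adgre1 and Cd68 are shared by most macrophages, Clec10a is also used by dendritic cells, Lyve1 is also used by lymphatic endothelium, and Timd4 is also used by macrophages of lymph nodes. The samples were whole tissue, and in such samples fewer cells of a type and less RNA per cell cannot be told apart.

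The recovered depth was 46907377 to 57610899 reads per library, with size factors between 0.9036 and 1.22. All 9 genes were detected in every library, the lowest value being 26.5 normalized counts of Timd4 (25 reads) in CON-LFD replicate 2. Normalized counts are reads divided by the size factor of the library. Of the libraries, 4 stood apart by a low lymphoid content. The summed normalized count of 10 B cell genes was 338 in CON-LFD replicate 2, 1561 in CON-LFD replicate 4, 3797 in DIO-HFD replicate 2 and 1149 in DIO-HFD replicate 3, against 19915 to 109696 in the other 12 libraries. Lymph node removal was not described in the sources used here. CON-LFD replicate 4 also stood apart by its myeloid genes, with 153948 normalized counts over 16 pan-macrophage genes against 25160 to 126479 elsewhere. Skeletal muscle genes summed to 33997 in that library, 150876 in DIO-LFD replicate 4 and 25563 in DIO-VSG replicate 2, against 444 to 4427 in the other 13. DIO-VSG replicate 2 also had the highest sum of neutrophil genes, 8081 against at most 2808 elsewhere. The part of these contents in the values of the 9 markers was not tested.

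All 9 genes are protein coding in the GENCODE M21 annotation of GRCm38, from which the positions below were taken. Mrc1 is at chr2:14229392-14332057, Cd163 at chr6:124304656-124330527 and Adgre1 at chr17:57358691-57483527. Folr2 at chr7:101839988-101857194 and Lyve1 at chr7:110850607-110863239 share a chromosome. Timd4 is at chr11:46810800-46844332, Cd68 at chr11:69664213-69666153 and Clec10a at chr11:70156197-70170834. Clec10a was the member whose reads could most readily be divided with another gene: 14.8% of the 31-base words of its transcripts occur in transcripts of other genes, mainly its neighbor Mgl2 (13.7%). The share was 0.565% for Cd163, 0.38% for Csf1r and 0 for the other 6 members. Csf1r overlaps Hmgxb3 and Folr2 overlaps Gm10602 and Gm45319, all on the opposite strand. On the same strand, Csf1r overlaps the microRNA gene Mir6983 and Mrc1 overlaps the microRNA gene Mir511.

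The sequences before the start sites are shown for Mrc1, Cd163 and Folr2, which correlated closely across libraries, and for Timd4, which correlated little with those 3. Each is the 250 bases before a RefSeq start on GRCm38.p6, read 5′ to 3′ on the strand of the gene. Capitals mark the core of the site for the myeloid factor PU.1, GAGGAA or its reverse complement TTCCTC, and the half-site of Maf factors, TGCTGA or its reverse complement TCAGCA. The intervals are chr2:14229164-14229413 (plus strand), chr6:124304401-124304650 (plus strand), chr7:101857191-101857440 (minus strand, the more distal of 2 starts of Folr2) and chr11:46810549-46810798 (plus strand).
Mrc1: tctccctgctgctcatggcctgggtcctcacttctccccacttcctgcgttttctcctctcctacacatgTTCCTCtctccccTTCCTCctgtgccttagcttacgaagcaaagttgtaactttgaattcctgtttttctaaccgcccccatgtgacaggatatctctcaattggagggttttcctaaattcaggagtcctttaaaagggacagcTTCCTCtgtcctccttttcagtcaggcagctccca
Cd163: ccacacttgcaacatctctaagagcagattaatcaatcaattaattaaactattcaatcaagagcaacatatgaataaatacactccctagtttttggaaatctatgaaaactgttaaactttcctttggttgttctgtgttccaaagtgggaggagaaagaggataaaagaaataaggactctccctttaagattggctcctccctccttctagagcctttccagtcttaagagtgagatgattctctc
Folr2: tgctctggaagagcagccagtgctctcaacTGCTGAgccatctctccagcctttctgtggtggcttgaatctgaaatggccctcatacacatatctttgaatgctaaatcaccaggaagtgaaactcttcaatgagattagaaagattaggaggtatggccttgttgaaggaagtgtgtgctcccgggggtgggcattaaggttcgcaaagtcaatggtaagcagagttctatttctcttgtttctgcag
Timd4: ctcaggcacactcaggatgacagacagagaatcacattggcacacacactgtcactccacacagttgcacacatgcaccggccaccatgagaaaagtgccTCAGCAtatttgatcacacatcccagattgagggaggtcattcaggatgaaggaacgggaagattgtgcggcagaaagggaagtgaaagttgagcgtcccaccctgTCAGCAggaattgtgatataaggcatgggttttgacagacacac

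The PU.1 core occurred 3 times before Mrc1 and not in the other 3 sequences shown. The Maf half-site occurred 2 times before Timd4 and 1 time before Folr2. Sequences were at hand for 5 of the 9 members, with 6 starts in all, of which 2 held a PU.1 core (Mrc1 and Cd68) and 3 a Maf half-site (Timd4 and both starts of Folr2). Among 32851 starts in the same table, 23.3% held the PU.1 core and 16.1% the Maf half-site in this window. These are matches of 6 letters, not binding sites.

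Levels of different genes were compared per kilobase of the longest coding transcript. The median over 16 libraries was 1964 normalized counts per kilobase for Cd68 and 1646 for Csf1r. It was 1123 for Mrc1, 1097 for Clec10a, 1050 for Timd4 and 1023 for Folr2. It was lower for Lyve1 (808), Cd163 (768) and Adgre1 (440). The ranges of neighbors in this order overlapped in every case, and Cd68, at 490 to 3414, overlapped even with Adgre1, at 176 to 5723. The spread between libraries was widest for Timd4, whose highest library was 175.8 times its lowest, and next widest for Adgre1 at 32.5 times. For the other 7 members this ratio was 5.82 to 11.6.

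**Figure D1:**
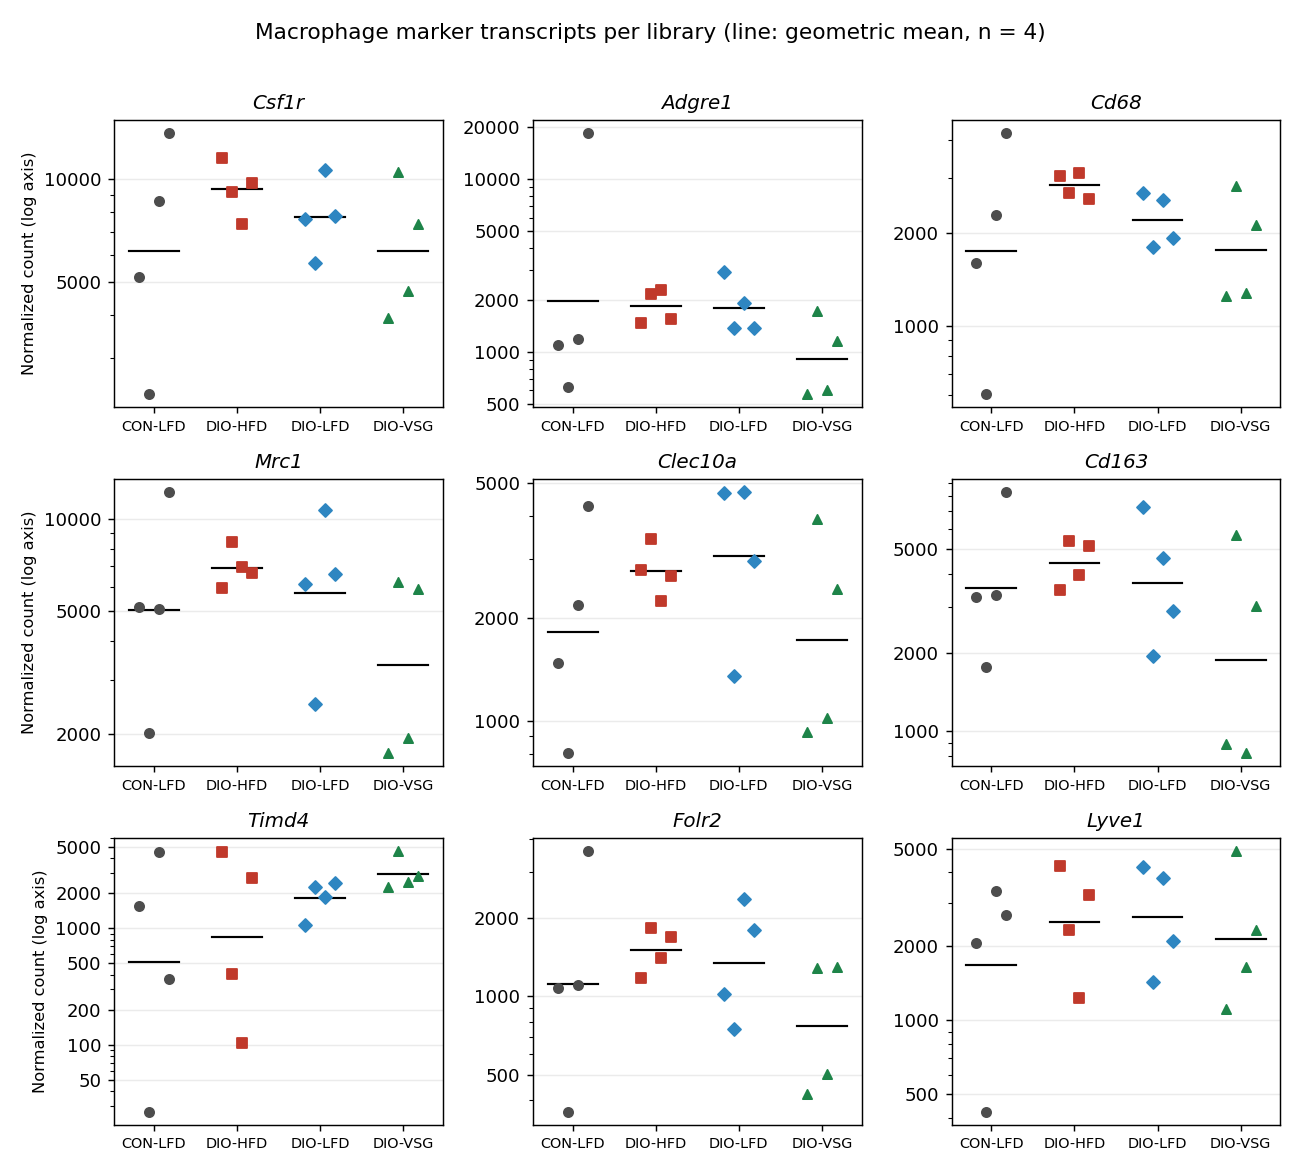
Normalized counts of the 9 macrophage markers in the 16 libraries. Each point is 1 library, the horizontal line is the geometric mean of the 4 libraries of a group and the vertical axis is logarithmic with its own range in each panel. Groups overlap in every panel, CON-LFD replicate 4 reaches 18530 for Adgre1, and Timd4 falls to 26.5 in CON-LFD replicate 2.

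Csf1r encodes the receptor for CSF1 and IL-34, on which macrophages depend for survival. In replicates 1 to 4, Csf1r had 5163, 2348, 8643 and 13668 normalized counts in CON-LFD and 11563, 9197, 7416 and 9774 in DIO-HFD. It had 7670, 5690, 10622 and 7809 in DIO-LFD and 3930, 10499, 4726 and 7407 in DIO-VSG. The 4 CON-LFD libraries spanned the values of all other groups, and the lowest and the highest of all 16 libraries were both in CON-LFD.

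Adgre1 encodes F4/80, the adhesion receptor by which mouse macrophages are usually recognized. Its normalized counts were 1090, 624, 1196 and 18530 in CON-LFD and 1468, 2181, 2297 and 1549 in DIO-HFD. They were 2914, 1384, 1931 and 1377 in DIO-LFD and 569, 1726, 600 and 1157 in DIO-VSG. One library, CON-LFD replicate 4, was far above the other 15, which lay between 569 and 2914. Several other myeloid genes were also far higher in that library, among them Fpr1, a formyl peptide receptor, at 1055 against at most 66.6 elsewhere, and Siglece, a sialic acid lectin, at 2558 against at most 222.

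Cd68 encodes a lysosomal glycoprotein of phagocytes. Normalized counts of Cd68 were 1602, 602, 2284 and 4199 in CON-LFD and 3044, 2692, 3130 and 2569 in DIO-HFD. They were 2691, 1793, 2547 and 1917 in DIO-LFD and 1251, 2835, 1274 and 2124 in DIO-VSG. The DIO-HFD libraries lay within 1.22-fold of each other, and the highest libraries of DIO-LFD (2691) and DIO-VSG (2835) exceeded the lowest of DIO-HFD.

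Mrc1 encodes the mannose receptor CD206, a lectin that takes up glycoproteins. Mrc1 had normalized counts of 5155, 2009, 5077 and 12234 in CON-LFD and 5937, 8409, 6954 and 6650 in DIO-HFD. They were 6137, 2496, 10662 and 6621 in DIO-LFD and 1731, 6234, 1935 and 5916 in DIO-VSG. The DIO-VSG libraries fell into a low pair, replicates 1 and 3, and a pair close to the DIO-HFD values. The same pair of DIO-VSG libraries, replicates 1 and 3, was the lowest of its group for 9 of 9 members.

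Clec10a, a lectin for galactose-type sugars, ranged from 804 to 4280 normalized counts in CON-LFD and from 2248 to 3433 in DIO-HFD. It ranged from 1354 to 4716 in DIO-LFD and from 925 to 3912 in DIO-VSG. The 4 ranges overlapped. Mgl2, the paralog with which its transcripts share sequence, had 743 to 3917 normalized counts in CON-LFD, 1934 to 3050 in DIO-HFD, 943 to 5059 in DIO-LFD and 542 to 2433 in DIO-VSG.

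Cd163 encodes the scavenger receptor for haptoglobin-bound hemoglobin. Its normalized counts were 3283, 1760, 3338 and 8311 in CON-LFD and 3486, 5373, 3996 and 5152 in DIO-HFD. They were 7265, 1947, 4612 and 2901 in DIO-LFD and 893, 5680, 823 and 3012 in DIO-VSG. The 2 lowest of the 16 libraries were DIO-VSG replicates 3 and 1, whereas DIO-VSG replicate 2 lay above all 4 DIO-HFD libraries.

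Folr2 encodes the folate receptor beta of macrophages. For Folr2 the normalized counts were 1072, 360, 1106 and 3615 in CON-LFD and 1178, 1830, 1402 and 1686 in DIO-HFD. They were 1019, 751, 2363 and 1795 in DIO-LFD and 420, 1285, 505 and 1295 in DIO-VSG. DIO-VSG overlapped DIO-HFD only through replicates 2 and 4, which exceeded DIO-HFD replicate 1.

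Lyve1 encodes a hyaluronan receptor. Its normalized counts were 2066, 424, 3366 and 2682 in CON-LFD and 4231, 2337, 1237 and 3249 in DIO-HFD. They were 4213, 1425, 3790 and 2103 in DIO-LFD and 1115, 4904, 1642 and 2338 in DIO-VSG. No group was uniformly high or low, and the ranges of all 4 groups overlapped. The summed normalized count of 7 lymphatic endothelium genes, beside these values, ran from 2736 to 47097 in DIO-HFD and from 23584 to 30363 in DIO-VSG.

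Timd4 encodes TIM-4, a phosphatidylserine receptor for the uptake of apoptotic cells. Its normalized counts were 1554, 26.5, 4541 and 369 in CON-LFD and 4576, 408, 104 and 2688 in DIO-HFD. They were 1072, 2270, 1862 and 2455 in DIO-LFD and 2293, 4660, 2484 and 2817 in DIO-VSG. The 4 lowest values were in the 4 libraries with the lowest B cell sums named above. The highest library exceeded the lowest by 171-fold in CON-LFD and 44.1-fold in DIO-HFD, and by 2.29-fold in DIO-LFD and 2.03-fold in DIO-VSG. The B cell sum spread in the same order, by 247.6-fold, 95.5-fold, 2.28-fold and 1.16-fold.

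Obesity was addressed by setting DIO-HFD against CON-LFD. In DIO-HFD, 8 of the 9 markers were higher than in CON-LFD by fitted log2 fold change, with a median over the 9 of 0.58 beside 0.02 over all 21218 genes tested, and no member passed the test. Without CON-LFD replicate 2, the values of Cd163, Timd4, Folr2 and Lyve1 fell below 0, where that of Adgre1 was with all libraries. By limma-trend with Benjamini-Hochberg adjustment over all genes tested, 0 of 9 members reached an adjusted p below 0.05, where 0.0377% of all genes did, and 0 of 9 reached an unadjusted p below 0.05, where 12.9% did. No member had groups that did not overlap, compared with 4.76% of all genes.

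The general macrophage genes Cd68 and Csf1r had log2 fold changes of 0.71 ± 0.44 (SE) and 0.61 ± 0.44, with adjusted p = 0.524 and 0.598. Adgre1 was at -0.10 ± 0.78 (adjusted p = 0.968). Of the lectins and scavenger receptors, Clec10a was at 0.59 ± 0.55 (adjusted p = 0.699), Mrc1 at 0.46 ± 0.56 (adjusted p = 0.78) and Cd163 at 0.32 ± 0.61 (adjusted p = 0.862). Lyve1 was at 0.58 ± 0.63 (adjusted p = 0.751), Folr2 at 0.43 ± 0.59 (adjusted p = 0.806) and Timd4 at 0.72 ± 1.34 (adjusted p = 0.859). The 95% confidence intervals of all 9 members included 0 and reached beyond a doubling in at least 1 direction, with Cd68 at -0.24 to 1.65 among the narrowest and Timd4 at -2.15 to 3.59 the widest.

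These values moved with single libraries. Without CON-LFD replicate 4, the highest of its group for 7 of 9 members, the log2 fold change was 0.98 for Adgre1 (adjusted p = 0.35), 0.99 for Csf1r (adjusted p = 0.356) and 1.13 for Cd68 (adjusted p = 0.305). Their unadjusted p by limma-trend was 0.0274, 0.0293 and 0.0117 in that fit. Without CON-LFD replicate 2, the lowest of its group for 9 of 9 members, the log2 fold change was 0.14 for Csf1r, 0.20 for Cd68, 0.20 for Clec10a and 0.02 for Mrc1. In the same fit it was -0.02 for Cd163, -0.11 for Folr2 and -0.65 for Adgre1. The value of Timd4 ran from -0.69 without CON-LFD replicate 2 to 1.76 without CON-LFD replicate 3, and that of Lyve1 from -0.0790 without CON-LFD replicate 2 to 0.92 without DIO-HFD replicate 3.

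Weight loss after surgery was addressed by setting DIO-VSG against DIO-HFD. In DIO-VSG, 8 of the 9 markers had lower fitted values than in DIO-HFD and Timd4 had a higher one, with a median over the 9 of -0.69 beside 0.02 over all genes. The fitted values were lowest for Cd163, Mrc1, Adgre1 and Folr2. In this comparison 0 of 9 members and 0% of all genes passed an adjusted p of 0.05, and 0 of 9 passed an unadjusted p of 0.05, where 13.2% of all genes did. None of the 9 had groups apart from each other, compared with 6.59% of all genes.

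Cd163 had a log2 fold change of -1.23 ± 0.61 (SE; 95% confidence interval -2.54 to 0.07), with adjusted p = 0.389 by limma. Mrc1 was at -1.06 ± 0.56 (adjusted p = 0.4), Adgre1 at -1.01 ± 0.78 (adjusted p = 0.514) and Folr2 at -0.96 ± 0.59 (adjusted p = 0.435). No member had a smaller p than Cd163 here. The group means behind the Mrc1 value were 3954 ± 2454 normalized counts in DIO-VSG and 6988 ± 1039 in DIO-HFD (SD, n = 4). Cd68 was at -0.69 ± 0.44 (adjusted p = 0.446), Clec10a at -0.67 ± 0.55 (adjusted p = 0.534) and Csf1r at -0.60 ± 0.44 (adjusted p = 0.492). Lyve1 was at -0.23 ± 0.63 (adjusted p = 0.867). Timd4 was at 1.79 ± 1.34 (95% confidence interval -1.09 to 4.66, adjusted p = 0.503).

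The value of Timd4 was 0.78 without DIO-HFD replicate 3 and 2.60 without DIO-HFD replicate 1, and DIO-HFD replicates 2 and 3 were the libraries of that group with few B cell transcripts. The low values of the other markers were those of DIO-VSG replicates 1 and 3. Without DIO-VSG replicate 2, the highest of its group for 8 of 9 members, Cd163 was at -1.76 (adjusted p = 0.301) and Mrc1 at -1.36 (adjusted p = 0.367). Their unadjusted p by limma-trend was 0.00765 and 0.038 in that fit. Without DIO-VSG replicate 1, Mrc1 was at -0.74, Clec10a at -0.37 and Lyve1 at 0.08. Weighting libraries by their estimated quality brought Cd163 (-1.57, adjusted p = 0.0252) and Folr2 (-1.16, adjusted p = 0.0494) past the threshold, and under the same weights 17.6% of all genes passed it.

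**Figure D2:**
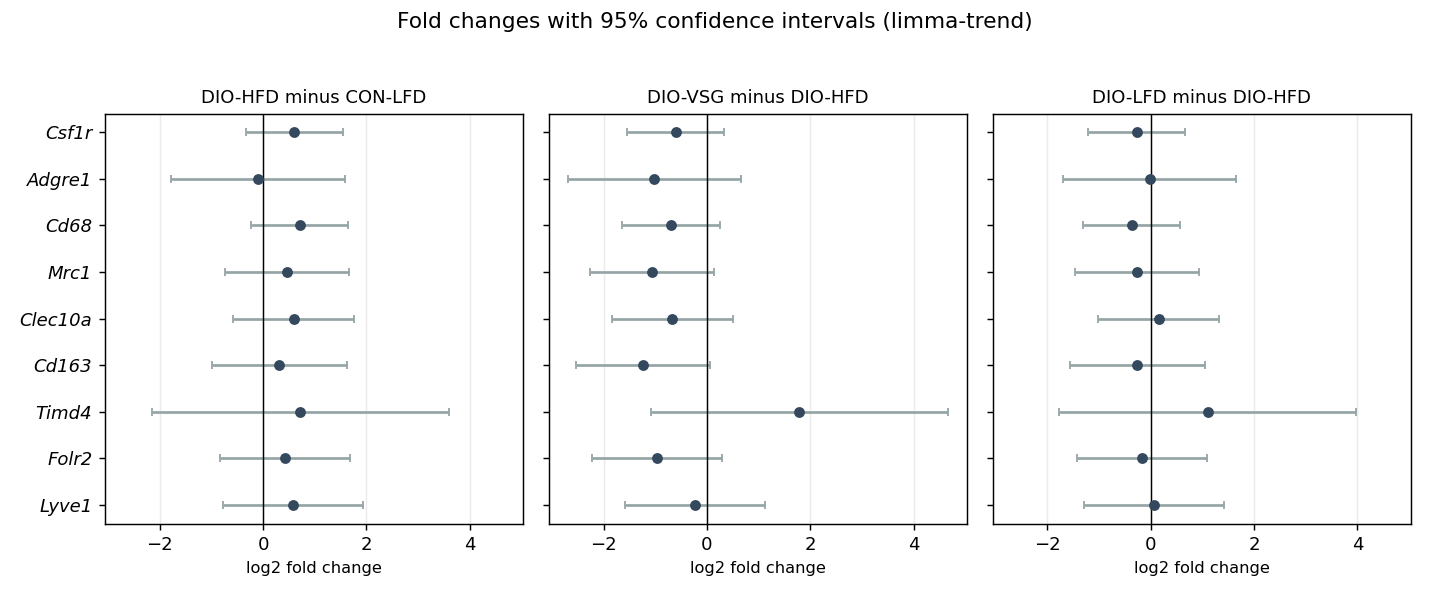
Log2 fold changes of the 9 markers in 3 comparisons, with 95% confidence intervals from limma-trend over 16 libraries. The horizontal axis is the log2 fold change on the log2(normalized count + 1) scale. Every interval includes 0, and Timd4 has the widest in each panel.

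Weight loss by diet without gastrectomy was addressed by setting DIO-LFD against DIO-HFD. The 9 fitted values lay on both sides of 0, with 3 higher and 6 lower in DIO-LFD, and 8 of them were between -0.37 and 0.15. The ninth was Timd4 at 1.10 ± 1.34 (SE, adjusted p = 0.923), which ran from 0.0923 without DIO-HFD replicate 3 to 1.91 without DIO-HFD replicate 1. Its mean normalized counts were 1915 ± 614 in DIO-LFD and 1944 ± 2099.5 in DIO-HFD (SD, n = 4). Cd68 was at -0.37 ± 0.44 (adjusted p = 0.92), Mrc1 at -0.27 ± 0.56 (adjusted p = 0.956), Csf1r at -0.27 ± 0.44 (adjusted p = 0.944) and Cd163 at -0.26 ± 0.61 (adjusted p = 0.965). Folr2 was at -0.16 ± 0.59 (adjusted p = 0.977), Adgre1 at -0.02 ± 0.78 (adjusted p = 0.998), Lyve1 at 0.07 ± 0.63 (adjusted p = 0.993) and Clec10a at 0.15 ± 0.55 (adjusted p = 0.977). No member passed an adjusted p of 0.05 (0% of all genes) or an unadjusted p of 0.05 (8.53% of all genes), and no member had groups that did not overlap (4.51% of all genes). Intervals were wide, with that of Mrc1 at -1.47 to 0.93, so a halving of its level was within it.

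The DIO-VSG and DIO-LFD comparisons share the DIO-HFD libraries and are not independent. Set against each other directly, DIO-VSG was lower than DIO-LFD for 8 of 9 members by fitted value, with a median of -0.78 and a range of -0.99 to 0.69. The smallest adjusted p was 0.539, no member passed an unadjusted p of 0.05 (9.71% of all genes, with 0% after adjustment), and no member had groups that did not overlap (18.8% of all genes). Between DIO-VSG and CON-LFD the members ranged from -1.12 to 2.51, with 4 higher and 5 lower and a smallest adjusted p of 0.317. There 17.8% of all genes passed an unadjusted p of 0.05, 0% an adjusted one, and 7.02% had groups that did not overlap, with 0 of 9 members in each case. Between DIO-LFD and CON-LFD the range was -0.12 to 1.82, with 8 higher and 1 lower and a smallest adjusted p of 0.873, and 0 of 9 members passed any of these limits. Of all genes, 6.26% passed the unadjusted limit there, 0.00471% the adjusted one, and 3.53% had groups that did not overlap.

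The order of group means was therefore not resolved for any member. By mean normalized count, DIO-VSG was lowest of the 4 groups for Csf1r, Adgre1, Cd68, Mrc1, Clec10a, Cd163 and Folr2, CON-LFD was lowest for Lyve1 and Timd4, and neighboring groups overlapped in each case. For 5 of those 7 members, Csf1r, Adgre1, Cd68, Clec10a and Folr2, the mean of CON-LFD without its replicate 4 was below that of DIO-VSG, and for Csf1r and Cd68 the fitted values of DIO-VSG and CON-LFD differed by 0.0031 and 0.0128 on the log2 scale, with DIO-VSG the higher.

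Across the 16 libraries, the profiles of most markers were alike, and that of Timd4 was closest to Lyve1. These correlations are descriptions over 16 libraries, 1 per mouse, and the values of all 9 genes in a library share its tissue piece and its scaling. Among the 28 pairs of the 8 genes other than Timd4, Pearson's r of log2(normalized count + 1) was 0.43 to 0.96 with a median of 0.81. The closest pairs were Mrc1 with Folr2 (r = 0.96, Spearman's rho = 0.94) and Csf1r with Cd68 (r = 0.95, rho = 0.83). The 6 pairs among Mrc1, Clec10a, Cd163 and Folr2 were at 0.82 to 0.96. For the 8 pairs of Timd4, r was -0.16 to 0.69, the highest being that with Lyve1. Lyve1 itself was nearest to Csf1r (r = 0.86), Clec10a (0.81) and Cd68 (0.78), and its r with Mrc1, Cd163, Folr2 and Adgre1 was 0.43 to 0.66. Leaving out CON-LFD replicate 4, the ranges were 0.61 to 0.96 for the 28 pairs and 0.03 to 0.72 for the pairs of Timd4.

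**Figure D3:**
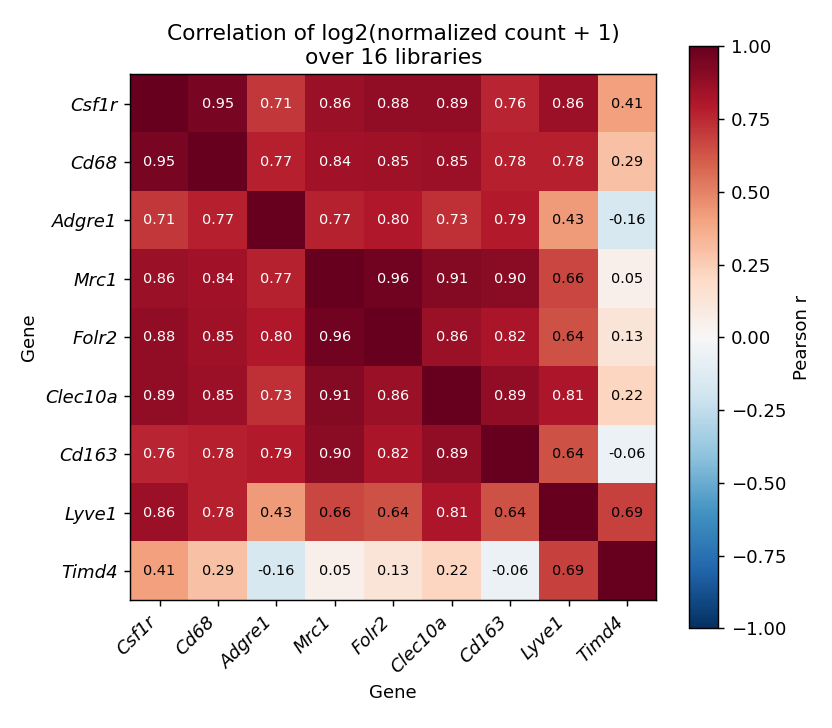
Pearson's r of log2(normalized count + 1) between the 9 markers over 16 libraries, as a color scale from -1 to 1 with the value in each cell. Mrc1 and Folr2 reach 0.96, and the row of Timd4 runs from -0.16 with Adgre1 to 0.69 with Lyve1.

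Among 13912 genes with a mean of at least 50 normalized counts, those with the profile most like each member were found by Pearson's r. For Mrc1 they were F13a1, the A chain of coagulation factor XIII (r = 0.98), Alox5, a lipoxygenase (r = 0.97), and the lectin Cd209f (r = 0.96). For Folr2 they were the transcription factor Maf (r = 0.95), Cd209f (r = 0.95) and Alox5 (r = 0.95), so that 2 of 3 were those of Mrc1. For Clec10a they were Fcna, a ficolin (r = 0.97), the Fc receptor Fcgr3 (r = 0.94) and Alox5 (r = 0.93). For Cd163 they were Ang (r = 0.95), the complement receptor C5ar1 (r = 0.94) and the scavenger receptor Stab1 (r = 0.94).

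The general markers had other neighbors. For Csf1r they were the potassium channel gene Kcnk13 (r = 0.95), Nfam1 (r = 0.94) and the atypical chemokine receptor Ackr2 (r = 0.94). For Cd68 they were the chloride transporter Clcn5 (r = 0.95), the amino acid transporter Slc36a1 (r = 0.94) and Kcnk13 (r = 0.94). For Adgre1 they were Clec4a2 (r = 0.97), Clec4a1 (r = 0.94) and Creg1 (r = 0.94), with values of 0.90, 0.86 and 0.86 once CON-LFD replicate 4 was left out. For Lyve1 they were Fcer1a (r = 0.90), Fcgr2b (r = 0.89) and C5ar2 (r = 0.88), none of them a lymphatic endothelium gene of the list used here.

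The genes nearest to Timd4 were of another kind. They were Cd209b, a lectin of lymph node and spleen macrophages (r = 0.99), the immunoglobulin light chain gene Igkc (r = 0.98) and H2-DMb2, a chaperone of antigen presentation (r = 0.98). Cd209b had 2240, 136, 5777 and 932 normalized counts in CON-LFD and 8261, 793, 429 and 4215 in DIO-HFD. It had 3386, 3149, 3118 and 4267 in DIO-LFD and 3302, 6668, 4265 and 5179 in DIO-VSG. Its 4 lowest libraries were the 4 lowest of Timd4.

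The B cell level was entered as a covariate to give the values of the markers beside it. With it, the log2 fold change of Timd4 between DIO-VSG and DIO-HFD was -0.37 in place of 1.79, and that between DIO-HFD and CON-LFD was -0.25 in place of 0.72. For Mrc1, Cd163 and Folr2 the DIO-VSG values were -1.08, -1.19 and -1.03 with this covariate, beside -1.06, -1.23 and -0.96 without it. That of Lyve1 was -0.86 in place of -0.23. The B cell sum was itself 75779 to 87520 in DIO-VSG, above every library of the other groups except CON-LFD replicate 3 and DIO-HFD replicate 1, so the covariate and the groups are partly confounded.

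**Figure D4:**
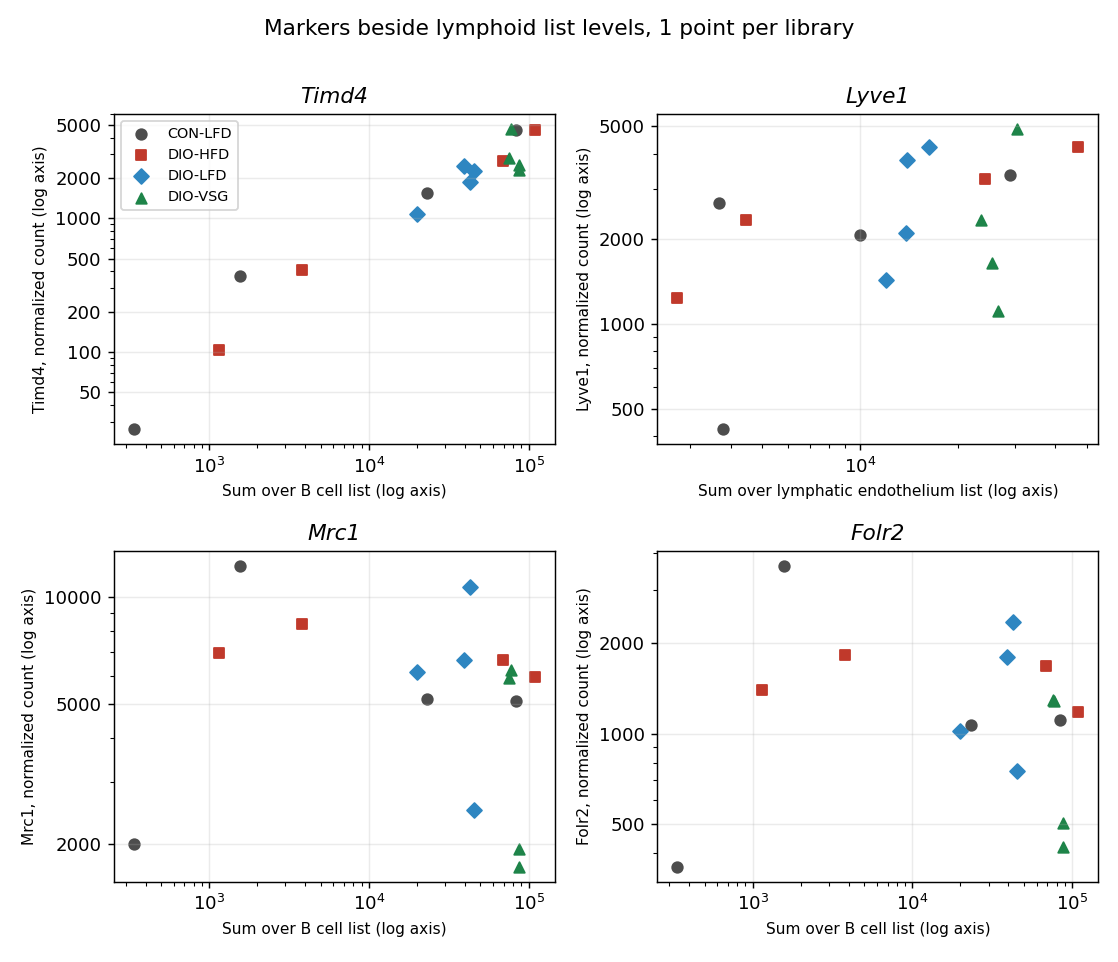
Normalized counts of Timd4, Lyve1, Mrc1 and Folr2 against the summed normalized count of a B cell list (lymphatic endothelium list for Lyve1), 1 point per library, both axes logarithmic. Timd4 is at 26.5 at a B cell sum of 338 and at 4576 at 109696, and its highest value is 4660 at 77650. Mrc1 and Folr2 have their highest values, 12234 and 3615, in 1 library, CON-LFD replicate 4, at a B cell sum of 1561. At the lowest sum, 338, they are at 2009 and 360, and they reach at most 6234 and 1295 at sums of 75779 and above.

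Other genes of the resident macrophage program were taken from a list of 21 that holds none of the 9 markers. Between DIO-VSG and DIO-HFD 20 of 21 were lower by fitted value, with a median of -1.01 beside 0.02 over all genes. Of the 21, 0 passed an adjusted p of 0.05 and 6 an unadjusted one, all 6 lower in DIO-VSG, where 13.2% of all genes passed the latter. Those with the smallest p were the iron exporter Slc40a1 (-0.96 ± 0.28 SE, adjusted p = 0.259), the chemokine Pf4 (-1.47 ± 0.54, adjusted p = 0.312) and the prostaglandin dehydrogenase Hpgd (-1.16 ± 0.44, adjusted p = 0.315). Between DIO-HFD and CON-LFD, 18 of 21 were higher (median 0.54), and 1 of 21 was at an unadjusted p below 0.05, beside 12.9% of all genes, namely Slc40a1 at 1.08 ± 0.28 (adjusted p = 0.191). That median was 0.0929 without CON-LFD replicate 2 and 0.96 without CON-LFD replicate 4. Between DIO-LFD and DIO-HFD 16 of 21 were lower (median -0.25), and the single gene at an unadjusted p below 0.05 was again Slc40a1 (-1.11 ± 0.28, adjusted p = 0.32), beside 8.53% of all genes. That median was 0.19 without DIO-LFD replicate 2.

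The 16 pan-macrophage genes had medians of 0.17, -0.21 and -0.06 in the DIO-HFD, DIO-VSG and DIO-LFD comparisons, with 0 of 16 at an unadjusted p below 0.05 in each. In the DIO-VSG comparison the list was split, with 6 genes higher and 10 lower by fitted value. There the complement genes C1qa, C1qb and C1qc were at -0.43, -0.64 and -0.54, whereas Laptm5 and Aif1 were at 0.78 and 0.70. With 1 library left out, the first median ran from -0.30 without CON-LFD replicate 2 to 0.58 without CON-LFD replicate 4. The second ran from -0.48 without DIO-VSG replicate 2 to -0.0745 without DIO-VSG replicate 3, and the third from -0.23 without DIO-HFD replicate 3 to 0.0763 without DIO-HFD replicate 1. With the mean level of this list as a covariate, the DIO-VSG values of Csf1r (-0.48), Cd68 (-0.57), Cd163 (-1.10), Mrc1 (-0.93) and Folr2 (-0.82) reached an unadjusted p below 0.05, as did 14.9% of all genes in the same fit, and the smallest adjusted p of any member was 0.239. Lipid-associated macrophage genes, which mark the cells around dying adipocytes, had a median of 1.29 in DIO-HFD against CON-LFD (10 of 11 higher) and -1.08 in DIO-VSG against DIO-HFD (10 of 11 lower). The elastase Mmp12 was at 1.69 ± 0.59 (adjusted p = 0.265) and -2.18 ± 0.59 (adjusted p = 0.246) and the lipid receptor Trem2 at 1.45 ± 0.58 (adjusted p = 0.316) and -1.67 ± 0.58 (adjusted p = 0.297). The others at an unadjusted p below 0.05 were the proton pump subunit Atp6v0d2 in the first comparison (1.64 ± 0.65, adjusted p = 0.317) and Dcstamp, a fusion protein of myeloid cells, in the second (-2.44 ± 0.67, adjusted p = 0.246). In each of these comparisons 3 of 11 were at an unadjusted p below 0.05, beside 12.9% and 13.2% of all genes, and 0 passed the adjusted limit. The summed normalized count of the list was 15932, 26254, 40774 and 17157 in DIO-HFD, of which replicates 1 and 4 lay within the CON-LFD range of 15431 to 24832. Without DIO-HFD replicate 3, the highest, the medians were 0.59 and -0.74, and without DIO-VSG replicate 2 the second was -1.62. In DIO-LFD against DIO-HFD the median was -0.51 (7 of 11 lower), and 4 of 11 were at an unadjusted p below 0.05, beside 8.53% of all genes, all 4 lower and 0 past the adjusted limit. Those with the smallest p were Dcstamp at -2.37 ± 0.67 (adjusted p = 0.414), Mmp12 at -1.67 ± 0.59 (adjusted p = 0.474) and the integrin Itgax at -0.71 ± 0.30 (adjusted p = 0.543). Dcstamp was a low gene, with mean normalized counts of 42.4 in DIO-HFD, 8.95 in DIO-LFD and 6.58 in DIO-VSG. The list median in this comparison ran from -0.81 without DIO-LFD replicate 3 to -0.32 without DIO-LFD replicate 2.

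**Figure D5:**
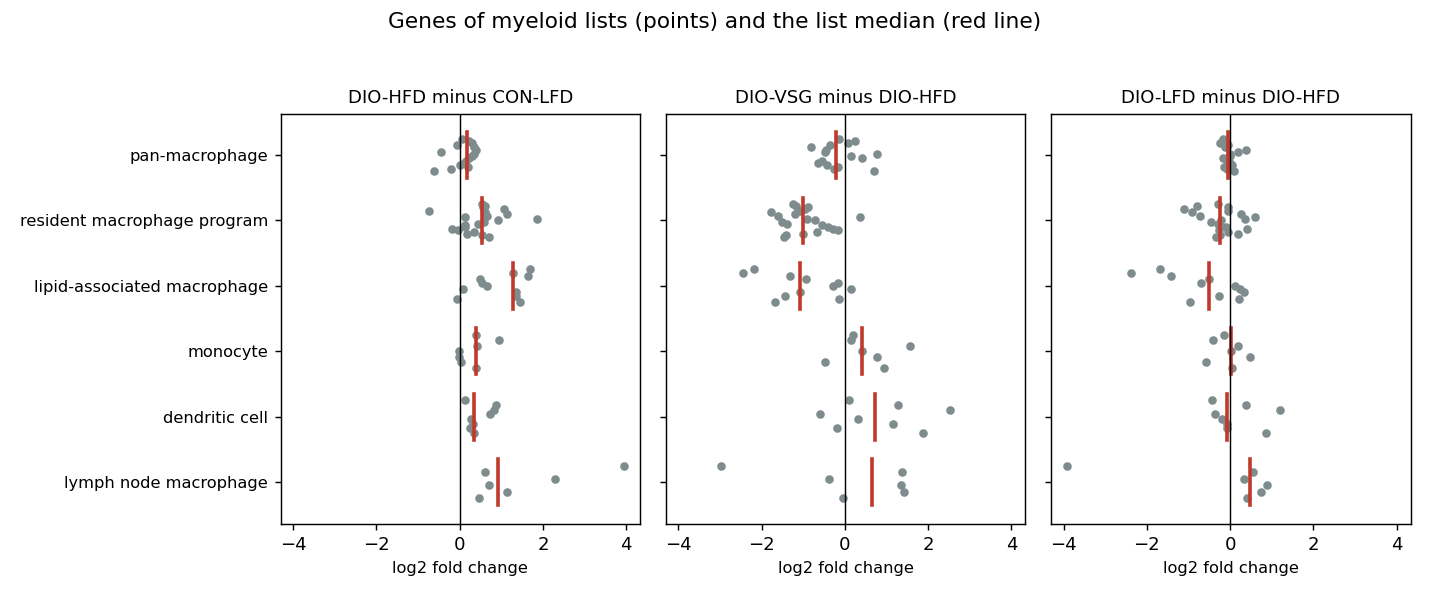
Log2 fold changes of single genes in 6 myeloid gene lists (points) with the list median (red line), in 3 comparisons. The resident macrophage program has its median at -1.01 between DIO-VSG and DIO-HFD, with 20 of 21 genes lower. The pan-macrophage list has its median at -0.21 there and is split, with 6 genes higher and 10 lower.

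The partners of the receptors were described from further lists. The ligands of Csf1r, Csf1 and Il34, were lower in DIO-VSG than in DIO-HFD by 0.65 and 0.86 in fitted log2 value at an unadjusted p below 0.05, but the adjusted p was 0.33 for Csf1 and 0.259 for Il34. They were the 2 of 10 genes of Csf1r signaling at that level, which 13.2% of all genes reached. The other 8 genes of the list had higher fitted values in DIO-VSG, and the list median was 0.65 higher there, from 0.34 without DIO-HFD replicate 2 to 1.05 without DIO-HFD replicate 1. Il34 had 447, 747, 440 and 527 normalized counts in DIO-VSG and 576, 1124, 1202 and 1098 in DIO-HFD, and only DIO-HFD replicate 1 overlapped DIO-VSG. Csf1 had 2468, 3903, 2460 and 3395 in DIO-VSG, all below the DIO-HFD values of 4495, 5231, 4708 and 4466.

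For efferocytosis, the clearance of dead cells served by Timd4, 5 of 14 genes were at an unadjusted p below 0.05 between DIO-VSG and DIO-HFD (13.2% of all genes, for this and the following counts), all lower, led by the bridging protein Mfge8 (-0.75 ± 0.20 SE, adjusted p = 0.246), its counterpart Pros1 (-0.69 ± 0.21, adjusted p = 0.273) and the receptor Axl (-0.85 ± 0.33, adjusted p = 0.318). For hemoglobin and iron handling, served by Cd163, 3 of 9 were, all lower, namely Slc40a1, haptoglobin Hp (-1.39 ± 0.57, adjusted p = 0.341) and heme oxygenase Hmox1 (-0.70 ± 0.31, adjusted p = 0.361). For alternative activation, with which Mrc1 is usually listed, 3 of 12 were lower at that level, namely Klf4 (-0.66 ± 0.24, adjusted p = 0.311), Stat6 (-0.30 ± 0.12, adjusted p = 0.327) and Retnla (-1.77 ± 0.72, adjusted p = 0.335). For hyaluronan handling, served by Lyve1, 1 of 9 was, the synthase Has3 (-0.45 ± 0.15, adjusted p = 0.283), and for folate uptake beside Folr2, 0 of 3 were. These lists share genes with the resident macrophage program, among them Slc40a1, Retnla and Stab1, so their counts are not separate from those given for it. No gene of these lists passed the adjusted limit in any of the 3 study comparisons.

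Markers of other cells were measured in the same comparisons. Between DIO-VSG and DIO-HFD the median log2 fold change was 2.80 over 10 B cell genes and 2.23 over 11 T cell genes, with all members of both lists higher by fitted value. The DIO-HFD libraries were split, with B cell sums of 3797 and 1149 and T cell sums of 2743 and 1254 in replicates 2 and 3, whereas replicates 1 and 4, at B cell sums of 109696 and 69188, lay on either side of the DIO-VSG range of 75779 to 87520. Without DIO-HFD replicate 3 the medians were 1.42 and 1.31, and without DIO-HFD replicate 1 they were 3.84 and 3.15. The median was 0.42 over 7 monocyte genes, 0.73 over 8 dendritic cell genes, 0.80 over 7 lymphatic endothelium genes and 0.65 over 6 lymph node macrophage genes. Without DIO-HFD replicate 1 these were 0.92, 1.24, 1.39 and 1.16. Without DIO-HFD replicate 3 the first 3 were 0.14, 0.24 and 0.0970, and the lymph node macrophage median was 0.28 without DIO-HFD replicate 2. The last list was split, with 3 of 6 genes higher and 3 lower, and its single gene at an unadjusted p below 0.05 was lower, the integrin Itgad (-2.97 ± 1.08 SE, adjusted p = 0.308). Itgad had 153, 685, 3424 and 117 normalized counts in DIO-HFD, with the high values in replicates 2 and 3, and 76.8, 126, 35.9 and 30.5 in DIO-VSG. Blood endothelium genes had lower fitted values in DIO-VSG for 6 of 6 (median -0.41), as 8 of the 9 markers did. Of the blood endothelium genes, 3 of 6 were at an unadjusted p below 0.05, beside 13.2% of all genes, a share that holds for every such count in this paragraph. They were the cadherin Cdh5 (-0.78 ± 0.29, adjusted p = 0.312), the receptor Tie1 (-0.61 ± 0.25, adjusted p = 0.334) and the VEGF receptor Kdr (-0.46 ± 0.21, adjusted p = 0.377). Mast cell genes were lower for 6 of 6 (median -0.43, which was -0.66 without DIO-HFD replicate 3 and -0.19 without DIO-VSG replicate 1), with the receptor Kit (-0.44 ± 0.19, adjusted p = 0.362) at that level. Neutrophil genes had a median of 0.78, with 5 of 5 tested higher, and -0.0581 without DIO-VSG replicate 2. The medians were -0.0154 over 8 adipocyte genes, where leptin, Lep, was at -1.81 ± 0.61 (adjusted p = 0.288), and 0.19 over 6 mammary epithelium genes, where the keratin Krt18 was at 0.89 ± 0.29 (adjusted p = 0.275). The adipocyte median ran from -0.32 without DIO-HFD replicate 1 to 0.14 without DIO-HFD replicate 2. The mammary epithelium median ran from -0.11 without DIO-HFD replicate 3 to 0.38 without DIO-HFD replicate 2.

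Between DIO-HFD and CON-LFD, 10 of 10 B cell genes (median 1.18), 11 of 11 T cell genes (0.61) and 6 of 6 lymph node macrophage genes (0.93) had higher fitted values in DIO-HFD, as 8 of the 9 markers did. These medians ran from -0.14 without CON-LFD replicate 2 to 2.53 without DIO-HFD replicate 3 for B cells, from -0.32 without DIO-HFD replicate 1 to 1.56 without CON-LFD replicate 3 for T cells, and from -0.0759 without CON-LFD replicate 2 to 1.80 without CON-LFD replicate 3 for lymph node macrophages. Of the 9 markers, Cd163, Timd4, Folr2 and Lyve1 also fell below 0 without CON-LFD replicate 2. At an unadjusted p below 0.05 there were 0 B or T cell genes and 1 lymph node macrophage gene, beside 12.9% of all genes. This gene was Itgad (3.94 ± 1.08, adjusted p = 0.215). Its high values, 685 and 3424 normalized counts, were in DIO-HFD replicates 2 and 3, the libraries of that group with low B cell sums. Cd209b of the same list had its low DIO-HFD values, 793 and 429, in those libraries. Mammary epithelium genes had lower fitted values for 6 of 6 (median -0.76). Of these, 2 of 6 were at an unadjusted p below 0.05, beside 12.9% of all genes, Krt18 (-0.86 ± 0.29, adjusted p = 0.257) and the adhesion molecule Epcam (-0.82 ± 0.30, adjusted p = 0.274). Of the blood endothelium genes 5 of 6 were higher (median 0.33), with Pecam1 at 0.50 ± 0.19 (adjusted p = 0.306). That median ran from 0.20 without DIO-HFD replicate 3 to 0.51 without CON-LFD replicate 2.

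Between DIO-LFD and DIO-HFD, 10 of 10 B cell genes (median 1.54) and 11 of 11 T cell genes (0.83) had higher fitted values in DIO-LFD, with 0 at an unadjusted p below 0.05 (8.53% of all genes, for this and the following counts). Without DIO-HFD replicate 3 these medians were 0.18 and -0.12, and without DIO-HFD replicate 1 they were 2.58 and 1.76. Of the mammary epithelium genes 3 of 6 were higher at that level (median 0.67, and 0.37 without DIO-HFD replicate 3), namely Krt18 (1.25 ± 0.29, adjusted p = 0.305), the keratin Krt8 (1.11 ± 0.39, adjusted p = 0.474) and Epcam (0.68 ± 0.30, adjusted p = 0.554). Lymph node macrophage genes were higher by fitted value for 5 of 6 (median 0.47, from 0.15 without DIO-HFD replicate 3 to 0.97 without DIO-HFD replicate 1). Itgad was lower at -3.91 ± 1.08 (adjusted p = 0.399), against DIO-HFD values that were high in replicates 2 and 3. Adipocyte genes were higher for 7 of 8 by fitted value (median 0.40, and 0.10 without DIO-HFD replicate 1), with adipsin, Cfd, at 0.82 ± 0.37 (adjusted p = 0.57). No gene of these lists passed the adjusted limit in any of the 3 comparisons. The part of these cells in the values of the 9 markers was not tested beyond the covariates given above.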

How the data were processed

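Total RNA-Seq was analysed in 16 libraries, and groups and replicate numbers came from the sample titles. Per the study's methods, the authors made stranded libraries and aligned them to mm10 (GRCm38) with STAR and estimated transcript abundance with salmon, whereas the submitters' processing notes list TopHat2 2.0.7 and HTSeq 0.5.3p9. The deposited values were log2 values from the authors' variance-stabilizing transformation in DESeq2, with a lowest value of 5.36. The transformation was inverted to normalized counts, and dividing by each library's step gave whole reads for 100.0% of values (within 0.1).

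Genes needed 10 or more normalized counts in 4 or more libraries, which left 21218. These were fitted together over the 16 libraries by limma-trend on log2(normalized count + 1), with group as the single term (limma version 3.58.1 under R 4.3.3). Tests were two-sided with Benjamini-Hochberg adjustment and a limit of 0.05. This scale understates the change of low genes. The script was tested on simulated data. The 9 members and 20 gene lists were chosen with earlier results of these data known. Every member was named in the study comparisons, and from a list, in the comparisons described, the genes with an unadjusted p below 0.05, at most the 3 with the smallest p. The rule as first set named 3 genes of each list whatever their p, and those above that limit were left out. For profiles most like a member, the 3 genes with the highest r were named, leaving out predicted genes and pseudogenes by symbol. Replicates were compared and differed beyond sampling noise. Each column carries its own animal number. Alternatives covered the scale, filter, normalization, weights, covariates, the replicate block and each library left out.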

Additional observations from a re-analysis of the deposited data

Results flagged for a closer look

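In groups of 4 libraries, the value farthest from the others was compared with the 95% critical value of Dixon's ratio of its gap to the range of the group. Of 36 tests (9 members in 4 groups), 1 exceeded it, where chance gives about 1 in 20. This was Adgre1 in CON-LFD, with 18530 normalized counts in replicate 4 and a ratio of 0.9681. In that library Itgam, an integrin of myeloid cells, was at 11690 against 639 to 4281 elsewhere, and C3ar1, a complement receptor, at 6020 against 211 to 1981. The cause was not tested.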

How the results depend on the processing

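Under 30 other settings, 0 of 9 members passed the adjusted threshold in each of 6 comparisons, except that library quality weights gave 2 in DIO-VSG minus DIO-HFD (Cd163 and Folr2), where 17.6% of all genes passed. Leaving out each library gave 0 members in every comparison. The replicate block gave 0 in each comparison. Replicate numbers did not pair the samples, since the correlation of same-numbered deviations exceeded 0.1 in 9 of 24 pairs (-0.61 to 0.53). Scaling to the library total moved the median of all genes to 0.16 in DIO-HFD minus CON-LFD (0.02 otherwise).

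Of 810 alternative member fold changes, 41 changed sign, and all 41 had an adjusted p above 0.05. The causes were not tested. Between DIO-HFD and CON-LFD, Adgre1 became 0.0413 with scaling to the library total (below that shift), 0.0247 with weights, 0.0474 with the B cell covariate and 0.0105 with the lymphatic endothelium covariate. There Timd4 became -0.25 with the B cell and -1.61 with the lymph node macrophage covariate, under which Cd163 became -0.13 and Lyve1 -0.46. Between DIO-VSG and DIO-HFD, Timd4 became -0.37 with the B cell covariate. Between DIO-LFD and DIO-HFD, Adgre1 became 0.10 with weights, 0.16 with the B cell, 0.0279 with the pan-macrophage, 0.14 with the lymphatic endothelium and 0.0205 with the lymph node macrophage covariate. There Timd4 became -0.27 with weights and -0.081 with the B cell covariate, and Lyve1 became -0.0164 with scaling to the library total, -0.29 with weights, -0.28 with the B cell and -0.15 with the lymphatic endothelium covariate. The lymphatic endothelium and lymph node macrophage covariates were chosen after seeing the data. The lymph node macrophage list holds Cd209b, the gene nearest to Timd4 (r = 0.99), and Itgad. The Timd4 value under that covariate therefore cannot be read apart from the choice of list.

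With 1 library left out, values for DIO-HFD minus CON-LFD ran from -0.65 to 0.98 for Adgre1, -0.022 to 0.72 for Cd163, -0.69 to 1.76 for Timd4, -0.11 to 1.00 for Folr2 and -0.079 to 0.92 for Lyve1. For DIO-VSG minus DIO-HFD, Lyve1 ran from -0.63 to 0.0835. For DIO-LFD minus DIO-HFD they ran from -0.25 to 0.11 for Adgre1, -0.57 to 0.13 for Mrc1, -0.0543 to 0.55 for Clec10a, -0.58 to 0.0534 for Cd163, -0.43 to 0.12 for Folr2 and -0.27 to 0.36 for Lyve1. The lowest depth, 46907377 reads, leaves counting error small beside the differences between mice, and the number of mice limits the precision.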
